A study of Mus musculus with 9 samples.

Results

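The 10 genes described here encode ligands, receptors and 1 extracellular antagonist of the activin and TGF-beta pathway: the ligand genes Inhba, Tgfb1 and Tgfb3, the antagonist Fst, the type I receptors Acvr1, Acvr1b and Tgfbr1, and the type II receptors Acvr2a, Acvr2b and Tgfbr2. They were taken by symbol, and all 10 were present among the 24346 gene symbols measured. In all, 9 lung macrophage samples were sequenced, with 3 samples in each of 3 groups, from C57BL/6 mice labelled as postnatal week 10. Ctrl-AM were alveolar macrophages (AMs) of mice that received vehicle. Tumor-AM were AMs of mice whose left lung had been injected with Lewis lung carcinoma (LLC), a lung cancer cell line of C57BL/6 origin that here carried the red fluorescent protein tdTomato, and Tumor-macrophage were the tumor-associated macrophages of such mice. AMs were sorted as CD45+ autofluorescent Siglec-F+ F4/80+ cells and the tumor-associated macrophages as Siglec-F- F4/80+ CD11b+ cells. Control and tumor-bearing mice were bred separately, lungs were not perfused, and whether Tumor-AM and Tumor-macrophage came from the same animals was not given.

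Activins and TGF-betas are secreted dimers of one protein superfamily. A dimer binds a type II receptor kinase, which activates a type I receptor kinase, and the activated complex phosphorylates Smad2 and Smad3, which join Smad4 and enter the nucleus. TGF-beta is secreted in a latent form that integrins and proteases release, and TGF-beta made by AMs themselves is known to maintain these cells in the lung.

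Levels are given in FPKM, the reads of a gene per kilobase of its transcript scaled to the mapped reads of its sample, so that genes can be compared per length. Differences between groups are on the log2(FPKM + 1) scale, on which low genes differ less than they do in FPKM. A gene was tested with limma when it reached 1 FPKM in at least 3 of the 9 samples, and p-values were adjusted over all 10686 such genes with 0.05 as the threshold. Of the 10 members 9 were tested and Fst was not, and 6 of the 9 were at 1 FPKM or more in every sample. Tgfb3 passed this filter only through Tumor-macrophage.

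The markers of the sorted populations followed the labels. All 9 AM markers, among them Siglecf, Pparg and Car4, were lower in Tumor-macrophage than in either AM group. All 7 markers of tumor-associated macrophages, among them Cx3cr1, C1qa and Itgam, were higher there. Of all tested genes, 24.4% passed the test as lower and 24.2% as higher against Tumor-AM, and 27.1% and 27.7% against Ctrl-AM. The study used several of these markers on these samples. Siglecf and Itgam encode Siglec-F and CD11b, by which the cells were sorted, so their differences are not independent evidence of identity. Cx3cr1 was under 1 FPKM in every AM sample and so was tested only through Tumor-macrophage. Siglecf was likewise under 1 FPKM in every Tumor-macrophage sample. The calls of both in these comparisons are a description. Of the 9 AM markers, 1 passed the test between the AM groups, beside 3.18% of all tested genes called lower in Tumor-AM. This was Pparg, lower in Tumor-AM (-0.53 ± 0.09, SE, limma, adjusted p = 0.00455). Of the 7 markers of tumor-associated macrophages, 5 were also higher in Tumor-AM when set against Ctrl-AM, beside 7.11% of all tested genes. C1qa, for example, had 2.61 ± 1.22 (SD, n = 3) FPKM in the control AMs, 9.79 ± 3.48 in the AMs of tumor-bearing mice and 2171.3 ± 84.1 in the tumor-associated macrophages. Summed FPKM of 5 fibroblast markers ran from 1.91 to 3.30 in Ctrl-AM and from 5.03 to 12.0 in Tumor-macrophage, and was 12.4, 8.52 and 59.6 in Tumor-AM 1, 2 and 3, mainly from Lum and Col3a1, while Col1a1 and Col1a2 reached at most 1.37 FPKM. Summed B cell markers ran from 10.2 to 12.6 in Ctrl-AM, 2.59 to 5.86 in Tumor-AM and 16.9 to 35.3 in Tumor-macrophage. Summed epithelial markers ran from 50.6 to 201.7, 29.8 to 82.3 and 19.2 to 72.8 in the same order, and those of T cells from 0.700 to 2.28, 1.44 to 2.99 and 3.09 to 7.77. The other lists, those of endothelium, neutrophils, eosinophils and platelets, reached at most 7.40 in any sample. Of the neutrophil genes, Elane was listed at 0 in all 9 samples, but Cxcr2 was at 2.19 to 6.08 FPKM. Of the eosinophil genes, Epx was listed at 0 in all 9 samples. Prg2 reached 1.14 FPKM and Ccr3 0.457, both among the tumor-associated macrophages. Whether neutrophils or eosinophils were present was not tested.

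The sequences around the transcription start are shown for Inhba, the member that passed the test between the AM groups, and for Tgfb1 and Tgfbr1, which did not. Windows of 250 bases before and 50 after the start were taken from RefSeq (GRCm38.p6), and 8 of the 10 members were matched in the table used here. The 3 windows below are those of Inhba at chr13:16011601-16011900, Tgfb1 at chr7:25686752-25687051 and the first of 2 Tgfbr1 windows at chr4:47352972-47353271, all on the plus strand and 5′ to 3′. Capitals mark TATAAA, the core of a TATA box, and GGGCGG or its complement, a GC box, searched on both strands.
Inhba: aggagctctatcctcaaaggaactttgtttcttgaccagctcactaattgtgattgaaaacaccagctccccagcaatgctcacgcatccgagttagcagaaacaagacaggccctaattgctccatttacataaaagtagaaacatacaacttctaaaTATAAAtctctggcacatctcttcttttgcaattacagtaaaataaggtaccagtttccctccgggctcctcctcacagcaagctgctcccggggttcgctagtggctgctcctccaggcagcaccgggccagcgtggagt
Tgfb1: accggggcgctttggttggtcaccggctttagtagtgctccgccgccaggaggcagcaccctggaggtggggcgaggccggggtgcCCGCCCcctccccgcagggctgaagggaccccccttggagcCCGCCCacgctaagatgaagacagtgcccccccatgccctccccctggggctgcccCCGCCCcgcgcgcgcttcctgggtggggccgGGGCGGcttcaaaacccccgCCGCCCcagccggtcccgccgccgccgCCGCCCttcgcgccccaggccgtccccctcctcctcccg
Tgfbr1: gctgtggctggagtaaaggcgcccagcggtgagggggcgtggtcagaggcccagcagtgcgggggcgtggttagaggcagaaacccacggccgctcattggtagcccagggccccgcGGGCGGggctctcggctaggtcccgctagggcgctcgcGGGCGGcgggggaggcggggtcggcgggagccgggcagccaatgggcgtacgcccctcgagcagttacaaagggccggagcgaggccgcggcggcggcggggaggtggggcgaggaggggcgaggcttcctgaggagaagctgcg
The Inhba window held TATAAA 91 bases before the start, a motif in 13.6% of all 32851 windows, and no GGGCGG. The Tgfb1 window held 6 copies of GGGCGG and the Tgfbr1 window 2, against 35.7% of all windows with at least 1. The Inhba window was 47.7% G or C with 7 CpG, near the medians of 52.7% and 7 over all windows. The Tgfb1 window was 77.0% G or C with 30 CpG and that of Tgfbr1 74.7% with 34. The second Tgfbr1 window, at chr4:47385966-47386265, was 52.0% G or C with 3 CpG and held no GGGCGG. The Tgfbr2 window, not shown, was 59.0% G or C with 15 CpG and held neither TATAAA nor GGGCGG. Like Tgfb1 and Tgfbr1, Tgfbr2 did not pass the test between the AM groups. The windows of Acvr1, Acvr1b, Acvr2a and Acvr2b each held GGGCGG and no TATAAA. These matches describe the windows only.

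Each population carried a different mix of the 3 ligand transcripts, while Tgfbr1 and Tgfbr2 made up most of the receptor FPKM in all of them. In Ctrl-AM, Tgfb1 made up 62.4% ± 10.4 (SD, n = 3) of the summed FPKM of the 3 ligands. In Tumor-AM the largest part was Inhba, at 81.3% ± 3.37. In Tumor-macrophage, Tgfb3 with 40.5% ± 3.81 and Inhba with 35.9% ± 3.51 were the larger parts, beside 23.7% ± 2.74 for Tgfb1. Tgfbr1 and Tgfbr2 together made up 93.2% ± 0.955, 94.2% ± 0.569 and 93.3% ± 1.53 of the summed FPKM of the 6 receptors in Ctrl-AM, Tumor-AM and Tumor-macrophage. The share of Tgfbr2 alone was 55.1% ± 2.60, 59.3% ± 1.35 and 47.3% ± 2.62 in that order, and that of Tgfbr1 was 38.1% ± 1.66, 34.9% ± 1.35 and 46.0% ± 3.35. In all 3 Tumor-macrophage samples the Tgfbr2 share was below, and the Tgfbr1 share above, that of every AM sample.

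**Figure D1:**
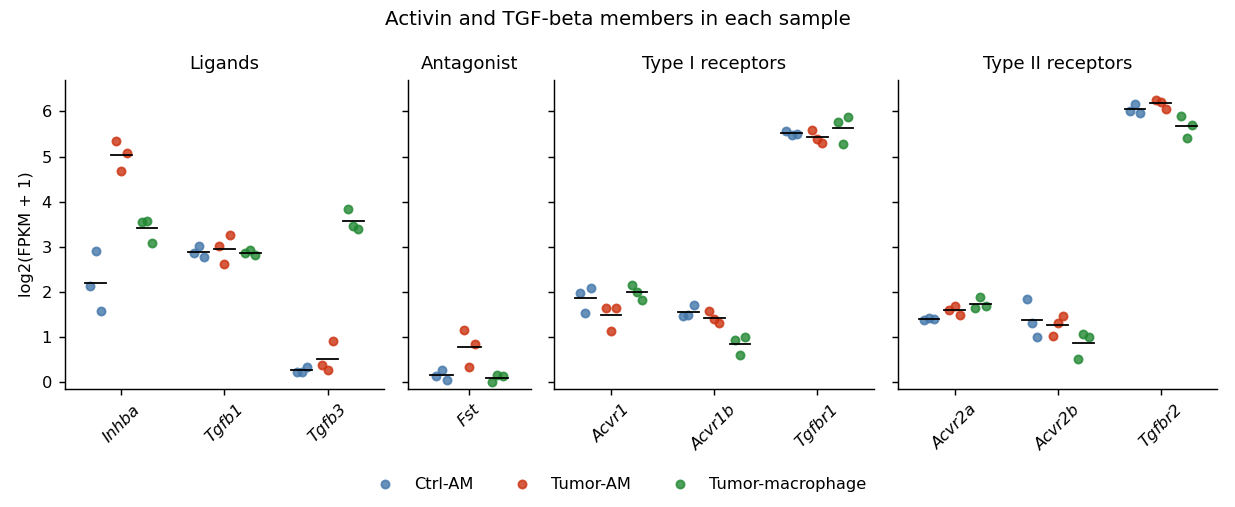
Levels of the 10 members as log2(FPKM + 1) on the vertical axis, by role, with 1 point per sample and a line at the mean of 3 samples of Ctrl-AM (blue), Tumor-AM (red) and Tumor-macrophage (green). Inhba separated all 3 groups, Tgfb3 was high in Tumor-macrophage, and Tgfbr1 and Tgfbr2 were the most abundant members in each group's means.

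Among the ligands, Inhba encodes the subunit of which activin A is a homodimer (ENSMUSG00000041324, chr13:16011851-16031621, plus strand, mm10). Its level was 3.39, 6.53 and 2.00 FPKM across the Ctrl-AM samples, 39.5, 24.5 and 32.7 across the Tumor-AM samples and 10.8, 10.9 and 7.52 across the Tumor-macrophage samples. Every Tumor-AM sample was above every Tumor-macrophage sample, which were all above every Ctrl-AM sample. The mean in Tumor-AM was 8.11 times that in Ctrl-AM, a difference of 2.82 ± 0.30 (SE) on the log2(FPKM + 1) scale (limma, adjusted p = 0.000506). Tumor-macrophage was lower than Tumor-AM, with a log2 difference of -1.62 ± 0.30 (limma, adjusted p = 0.00106), and higher than Ctrl-AM by 1.20 ± 0.30 (limma, adjusted p = 0.00597). The study chose Inhba on these samples, so its direction is not independent evidence. Without Tumor-AM 3, the sample with the highest fibroblast marker sum, the difference between the AM groups was 2.79 (limma, adjusted p = 0.00296). Since these are bulk samples, a higher share of cells with Inhba and more Inhba RNA per cell cannot be told apart, and the same holds for each member below.

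Tgfb1 (ENSMUSG00000002603, chr7:25687002-25705077, plus strand) encodes TGF-beta1, the isoform best known from leukocytes. Its level was 6.26, 7.11 and 5.87 FPKM across the Ctrl-AM samples, 7.10, 5.12 and 8.55 across the Tumor-AM samples and 6.29, 6.68 and 6.03 across the Tumor-macrophage samples. The 3 groups overlapped, and the 3 Tumor-AM samples were spread widest. No difference passed the test. Its 95% interval reached from -0.27 to 0.42 on the log2(FPKM + 1) scale between Tumor-AM and Ctrl-AM (limma, adjusted p = 0.817), from -0.43 to 0.25 for Tumor-macrophage against Tumor-AM (adjusted p = 0.664), and from -0.36 to 0.33 between Tumor-macrophage and Ctrl-AM (adjusted p = 0.951).

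Tgfb3 (ENSMUSG00000021253, chr12:86056745-86079041, minus strand) encodes TGF-beta3. It was at 0.179, 0.180 and 0.270 FPKM across the Ctrl-AM samples, 0.299, 0.201 and 0.873 across the Tumor-AM samples and 13.3, 10.0 and 9.56 across the Tumor-macrophage samples. All 3 Tumor-macrophage samples were above every AM sample, and the 2 AM groups overlapped. The log2 difference of Tumor-macrophage was 3.05 ± 0.18 from Tumor-AM (limma, adjusted p = 2.44e-07) and 3.29 ± 0.18 from Ctrl-AM (limma, adjusted p = 1.04e-07). As Tgfb3 was tested only because Tumor-macrophage was high, and the study also chose it on these samples, these calls stand as a description. The 2 AM groups differed by 0.24 ± 0.18 (limma, adjusted p = 0.472). The AM levels correspond to about 7 to 38 reads, and the highest AM value was that of Tumor-AM 3, with the fibroblast sum of 59.6 given above, whose part in it was not tested. Gene models on the other strand overlap 12.4% of the Tgfb3 exon bases, and without knowledge of strand their reads cannot be told apart.

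Fst (ENSMUSG00000021765, chr13:114452290-114458951, minus strand) encodes follistatin, which binds activin and keeps it from its receptors. It was at 0.104, 0.212 and 0.0303 FPKM across the Ctrl-AM samples, 1.25, 0.271 and 0.807 across the Tumor-AM samples and 0, 0.112 and 0.102 across the Tumor-macrophage samples. All Tumor-AM samples were above all samples of the other groups, which overlapped each other, and only Tumor-AM 1 reached 1 FPKM. These values stand for about 9 to 39 reads in Tumor-AM and at most 8 reads elsewhere. The exact permutation test (two-sided) gave p = 0.1 for Tumor-AM against either other group, the smallest value that 3 samples against 3 allow. In a fit of all genes without the filter, the log2 difference of Tumor-AM from Ctrl-AM was 0.63 ± 0.18 (limma, adjusted p = 0.1) and that of Tumor-macrophage from Tumor-AM was -0.69 ± 0.18 (limma, adjusted p = 0.0194). The fibroblast marker sum was likewise higher in every Tumor-AM sample than in every Ctrl-AM sample, and its part in the Fst level was not tested.

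**Figure D2:**
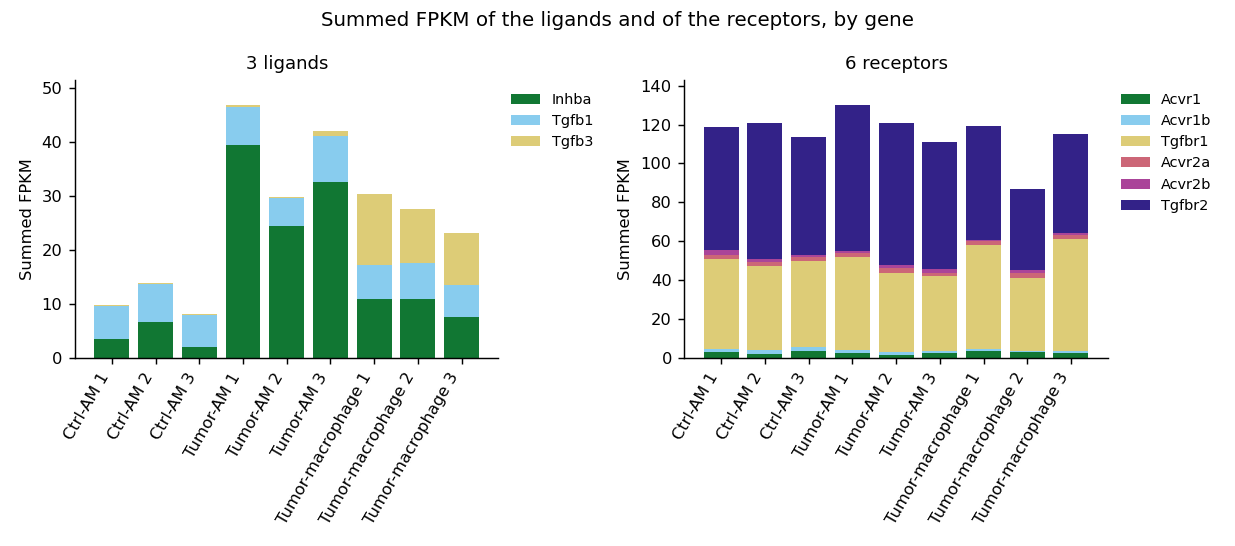
Summed FPKM (vertical axis) of the 3 ligands and of the 6 receptors in each of the 9 samples, stacked by gene. The ligand sum was 8.13 to 13.8 in Ctrl-AM, 29.8 to 46.9 in Tumor-AM and 23.1 to 30.4 in Tumor-macrophage, and Tgfbr1 and Tgfbr2 fill nearly the whole bar of receptors in every sample.

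The summed ligand level averaged 10.6 ± 2.92 (SD, n = 3) FPKM for Ctrl-AM, 39.6 ± 8.80 for Tumor-AM and 27.0 ± 3.67 for Tumor-macrophage. Both tumor groups lay above Ctrl-AM in every sample, and overlapped with each other. The receptor sum was 117.8 ± 3.75, 120.7 ± 9.40 and 107.1 ± 17.9 FPKM, and its lowest sample was Tumor-macrophage 2 with 86.6 FPKM.

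Among the type I receptors, Tgfbr1 (ENSMUSG00000007613, chr4:47353222-47414931, plus strand), the receptor of TGF-beta also called ALK5, was by far the most abundant. It was at 46.3, 43.7 and 44.4 FPKM across the Ctrl-AM samples, 47.4, 40.9 and 38.3 across the Tumor-AM samples and 53.7, 37.5 and 57.4 across the Tumor-macrophage samples. All groups overlapped, and its median percentile among tested genes was 82.1, 80.3 and 84.8 in the 3 groups. The 95% interval of the log2 difference ran from -0.41 to 0.23 between Tumor-AM and Ctrl-AM (limma, adjusted p = 0.762), from -0.11 to 0.53 for Tumor-macrophage against Tumor-AM (adjusted p = 0.257), and from -0.20 to 0.44 between Tumor-macrophage and Ctrl-AM (adjusted p = 0.504). The result on Tumor-macrophage rested on its second sample. Without it, the difference was 0.39 from Tumor-AM (limma, adjusted p = 0.00857) and 0.30 from Ctrl-AM (limma, adjusted p = 0.0250).

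Acvr1b (ENSMUSG00000000532, chr15:101174067-101213684, plus strand) encodes ALK4, the usual type I receptor of activin. It was at 1.75, 1.81 and 2.30 FPKM across the Ctrl-AM samples, 1.97, 1.64 and 1.50 across the Tumor-AM samples and 0.907, 0.513 and 1.02 across the Tumor-macrophage samples. All Tumor-macrophage samples were below all AM samples, and the AM groups overlapped. Tumor-macrophage was lower, with a log2 difference of -0.58 ± 0.15 from Tumor-AM (limma, adjusted p = 0.00818) and of -0.71 ± 0.15 from Ctrl-AM (limma, adjusted p = 0.00221), while Tumor-AM and Ctrl-AM differed by -0.13 ± 0.15 (limma, adjusted p = 0.663). The level in Tumor-macrophage was 0.477 times that in Tumor-AM, at about 25 to 54 reads a sample.

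Acvr1 (ENSMUSG00000026836, chr2:58388644-58567157, minus strand) encodes ALK2, a type I receptor used mostly by bone morphogenetic proteins (BMPs), which also binds activin. It was at 2.92, 1.92 and 3.25 FPKM across the Ctrl-AM samples, 2.15, 1.21 and 2.13 across the Tumor-AM samples and 3.45, 3.00 and 2.53 across the Tumor-macrophage samples. Tumor-AM was below Tumor-macrophage in every sample, and Ctrl-AM overlapped both. The log2 difference of Tumor-macrophage from Tumor-AM was 0.51 ± 0.19 (limma, adjusted p = 0.0470), just past the threshold. It was no longer past it without Tumor-AM 2 (0.34, adjusted p = 0.165 by limma), without Tumor-macrophage 1 (0.43, adjusted p = 0.138), without Tumor-macrophage 2 (0.50, adjusted p = 0.0938) or without Ctrl-AM 1 (0.51, adjusted p = 0.0600), nor with a pseudocount of 0.1, no filter, quantile normalization or TPM (limma adjusted p from 0.0527 to 0.104). Tumor-AM differed from Ctrl-AM by -0.38 ± 0.19 (limma, adjusted p = 0.245), and Tumor-macrophage from Ctrl-AM by 0.12 ± 0.19 (limma, adjusted p = 0.606).

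Among the type II receptors, Tgfbr2 (ENSMUSG00000032440, chr9:116084293-116175360, minus strand), which binds TGF-beta directly, had the highest mean of all 10 members in each group. It was at 63.6, 70.3 and 61.0 FPKM across the Ctrl-AM samples, 75.5, 73.2 and 65.8 across the Tumor-AM samples and 59.0, 41.7 and 51.1 across the Tumor-macrophage samples. All Tumor-macrophage samples were below all AM samples, and the AM groups overlapped. Tumor-macrophage was lower, with a log2 difference of -0.50 ± 0.12 from Tumor-AM (limma, adjusted p = 0.00495) and of -0.37 ± 0.12 from Ctrl-AM (limma, adjusted p = 0.0228). The latter was not past the threshold without Ctrl-AM 2 (-0.31, limma adjusted p = 0.0839) or without Tumor-macrophage 2 (-0.24, limma adjusted p = 0.0692). Between the AM groups the 95% interval ran from -0.13 to 0.40 (limma, adjusted p = 0.537).

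Acvr2a (ENSMUSG00000052155, chr2:48814109-48903269, plus strand) and Acvr2b (ENSMUSG00000061393, chr9:119402118-119434995, plus strand) encode the type II receptors that bind activin. Acvr2a was at 1.61, 1.69 and 1.64 FPKM across the Ctrl-AM samples, 2.05, 2.21 and 1.81 across the Tumor-AM samples and 2.12, 2.72 and 2.22 across the Tumor-macrophage samples. Ctrl-AM was below both tumor groups in every sample. The log2 difference from Ctrl-AM was 0.34 ± 0.12 in Tumor-macrophage (limma, adjusted p = 0.0354) and 0.19 ± 0.12 in Tumor-AM (limma, adjusted p = 0.371), and that between Tumor-macrophage and Tumor-AM was 0.15 (limma, adjusted p = 0.347). The first was lost without any 1 of Ctrl-AM 1, 2 or 3 or Tumor-macrophage 2 or 3, at 0.26 to 0.36 with limma adjusted p from 0.0587 to 0.120, and also with no filter, quantile normalization, TPM or a fit of the compared groups alone (limma adjusted p from 0.0528 to 0.235). The other-strand gene Orc4 overlaps 7.84% of the Acvr2a exon bases.

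Acvr2b was at 2.62, 1.48 and 1.00 FPKM across the Ctrl-AM samples, 1.04, 1.50 and 1.76 across the Tumor-AM samples and 0.421, 1.11 and 1.02 across the Tumor-macrophage samples. The groups overlapped in every comparison. Tumor-macrophage differed from Ctrl-AM by -0.52 ± 0.23 (limma, adjusted p = 0.0822) and from Tumor-AM by -0.40 ± 0.23 (limma, adjusted p = 0.182), and Tumor-AM from Ctrl-AM by -0.12 ± 0.23 (limma, adjusted p = 0.810). Without Ctrl-AM 3, the difference between Tumor-macrophage and Ctrl-AM was -0.72 and past the threshold (limma, adjusted p = 0.0315), and with TPM it was -0.74 (limma, adjusted p = 0.0310). The counts behind Acvr2b were low, about 14 to 95 reads a sample.

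**Figure D3:**
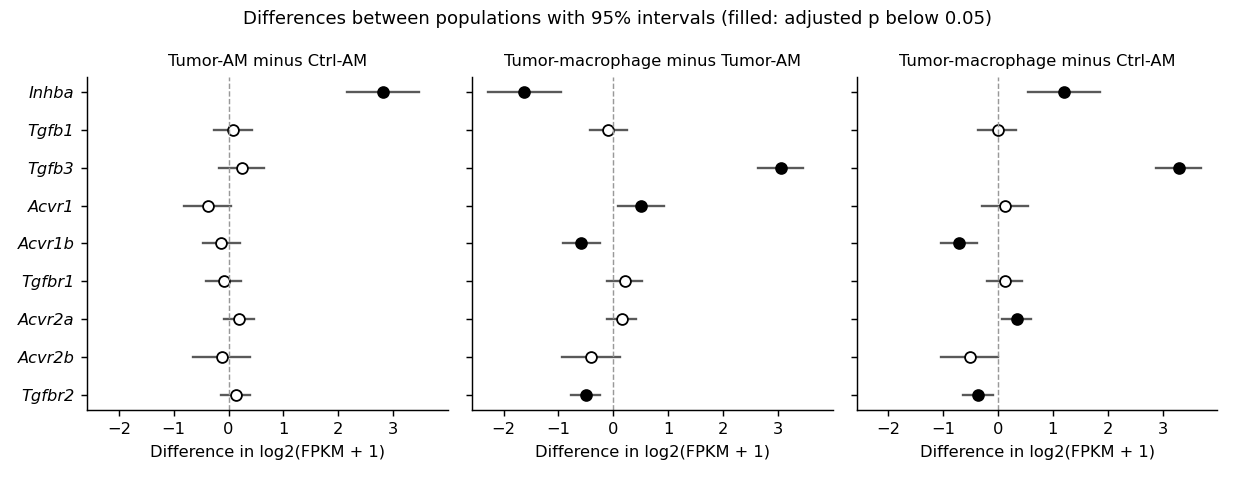
Differences of the 9 tested members in log2(FPKM + 1) (horizontal axis) for the 3 comparisons, with 95% intervals from limma as bars and filled points where the adjusted p was below 0.05. Inhba is the 1 filled point between Tumor-AM and Ctrl-AM, and 5 points are filled in each comparison with Tumor-macrophage.

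Between Tumor-AM and Ctrl-AM, 1 of the 9 tested members passed the test, upward, when 10.3% of all tested genes were called, 7.11% higher and 3.18% lower in Tumor-AM. Between Tumor-macrophage and Tumor-AM, 5 of 9 passed, 2 higher and 3 lower, when 48.6% of all genes were called, 24.2% higher and 24.4% lower. Between Tumor-macrophage and Ctrl-AM, 5 of 9 passed, 3 higher and 2 lower, against 54.8% of all genes, 27.7% higher and 27.1% lower. In both comparisons with Tumor-macrophage, 1 of the members counted as higher was Tgfb3, which was tested only through that group. The median difference over the 9 was 0.08, -0.09 and 0.12 in the same order, beside 0.01, 0.00 and -0.01 over all tested genes. Comparisons with a shared group are not independent of each other. Of the calls over all genes, 69.1% were higher in Tumor-AM when compared with Ctrl-AM, and this share was 57.6% after quantile normalization and 36.5% after rescaling to TPM, which gives every sample the same sum. Between Tumor-macrophage and Ctrl-AM it was 50.5%, and 32.6% with TPM.

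In the order of group means, Tgfbr2 and Tgfbr1 came first and second in each group. They did not overlap in either AM group and overlapped in Tumor-macrophage. In Ctrl-AM the next was Tgfb1, which overlapped with Inhba. In Tumor-AM, Inhba was the third, overlapping with Tgfbr1, and stood above Tgfb1 in every sample. In Tumor-macrophage, Tgfb3 and Inhba followed and overlapped each other, and both stood above Tgfb1. The 4 receptors Acvr1, Acvr1b, Acvr2a and Acvr2b had means of 0.813 to 2.99 FPKM in all groups.

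A ratio of a pair of genes within a sample does not depend on a scale factor of that sample, apart from the pseudocount. The log2 ratio of Inhba to Tgfb1 was -0.73, -0.11 and -1.19 across the Ctrl-AM samples, 2.32, 2.06 and 1.82 across the Tumor-AM samples and 0.70, 0.64 and 0.28 across the Tumor-macrophage samples. No groups overlapped, and the sign of the ratio was negative in Ctrl-AM and positive in both tumor groups. The ratio of Inhba to its antagonist Fst was 2.06 ± 0.55 (SD, n = 3) for Ctrl-AM, 4.24 ± 0.08 for Tumor-AM and 3.31 ± 0.32 for Tumor-macrophage, but with Fst at a few reads it depended on the pseudocount. The ratio of Tgfbr2 to Tgfbr1, the receptor pair of TGF-beta, was 0.52 ± 0.13 in Ctrl-AM and 0.75 ± 0.08 in Tumor-AM, which overlapped, and 0.04 ± 0.18 in Tumor-macrophage, below every AM sample. The ratio of Acvr1b to Tgfbr1 was -3.96 ± 0.16, -4.00 ± 0.03 and -4.79 ± 0.10, again lowest in all 3 Tumor-macrophage samples. The ratio of Acvr2a to Acvr2b was 0.02 ± 0.45, 0.32 ± 0.28 and 0.87 ± 0.23, and that of Tgfb1 to Tgfb3 was 2.61 ± 0.17, 2.45 ± 0.17 and -0.69 ± 0.24. With Tgfb3 at 0.179 to 0.873 FPKM in the AM samples, the last ratio also depended on the pseudocount and understates the ratio in FPKM there. The pseudocount also enters the ratios with Acvr1b, Acvr2a and Acvr2b, whose group means were 0.813 to 2.35 FPKM. Of 18 comparisons (6 ratios in 3 comparisons), 14 did not overlap. Of all tested genes, the FPKM of the groups did not overlap for 32.3% between Tumor-AM and Ctrl-AM, 55.3% between Tumor-macrophage and Tumor-AM and 62.3% between Tumor-macrophage and Ctrl-AM, so nothing is read from the count. Each of the 14 had an exact permutation p of 0.1 (two-sided, the smallest possible) and an adjusted p of 0.129 over the 18, and none could pass the threshold.

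**Figure D4:**
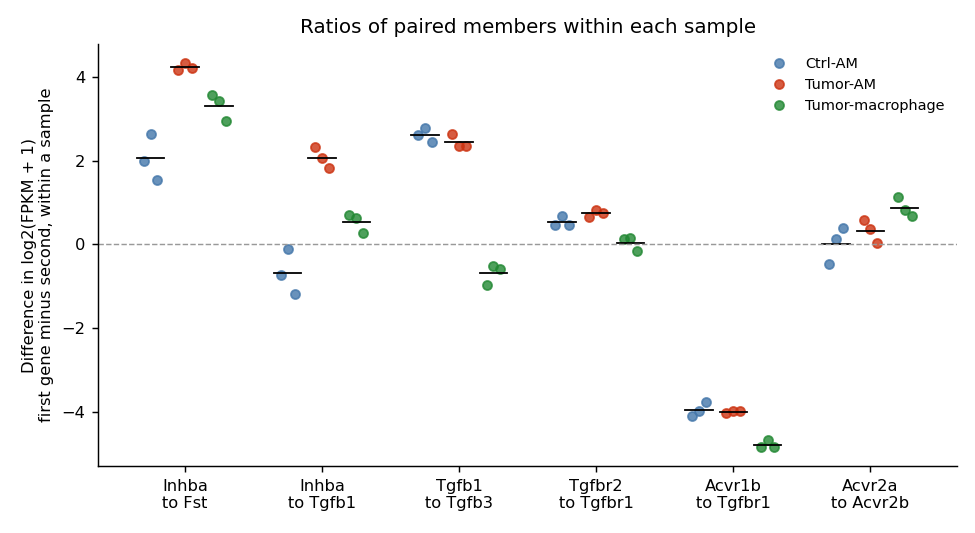
Log2 ratios of 6 pairs of members within each sample, as differences in log2(FPKM + 1) on the vertical axis, with 1 point per sample and a line at the mean of 3 samples. The ratio of Inhba to Tgfb1 separates all 3 groups, and the ratio of Tgfbr2 to Tgfbr1 is lowest in the 3 Tumor-macrophage samples.

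The genes nearest in profile to a member were taken over the 9 samples for Inhba and Tgfb3, the 2 tested members whose group means spanned at least 1 on the log2 scale. Nearest to Inhba were Spp1 (osteopontin), Nnmt and Zranb3, with a root mean square difference of 0.48, 0.57 and 0.61 in centred log2(FPKM + 1). Spp1 had means of 752.7, 3743.9 and 1458.6 FPKM in Ctrl-AM, Tumor-AM and Tumor-macrophage, and Zranb3 of 2.02, 8.75 and 5.81. Nearest to Tgfb3 were Epb4.1l3 (0.16), 4930592A05Rik (0.16) and Itgb7 (0.18), with Itgb7, an integrin subunit, at 3.21, 4.21 and 41.9 FPKM. With a pseudocount of 0.1, 3 of these 6 were still among the nearest 3 of their member, namely Spp1, Zranb3 and 4930592A05Rik.

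Beyond the members, 70 further genes of the pathway were listed and 38 of them tested. Between Tumor-AM and Ctrl-AM, 5 were higher and 1 lower, beside 7.11% and 3.18% of all tested genes. Between Tumor-macrophage and Tumor-AM, 21 were higher and 9 lower, beside 24.2% and 24.4% of all genes. Between Tumor-macrophage and Ctrl-AM, 23 were higher and 10 lower, beside 27.7% and 27.1%. Of those higher in Tumor-macrophage in both comparisons, 6 (Gdf3, Mmp9, Plau, Smad3, Smad6 and Smad7) had passed the filter only through that group, as Tgfb3 did, so these counts overstate how often such genes differed. In the same way Tgfb2, Bmpr1a, Cdkn2b and Nbl1 passed it only through the AM groups, and Bambi, Ltbp3 and Mmp14 only through the 2 tumor groups. The count between the AM groups was 3 without Ctrl-AM 1, Ctrl-AM 2 or Tumor-AM 3.

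Of 16 other ligands, 3 were tested. Gdf15, a stress-induced member of the superfamily, was the most abundant of the ligands listed here. It had 403.8 ± 63.7 FPKM for Ctrl-AM, 437.8 ± 78.6 for Tumor-AM and 121.5 ± 24.6 for Tumor-macrophage. The log2 difference between the last 2 was -1.85 ± 0.17 (limma, adjusted p = 7.35e-06). Whether Gdf15 acts through the receptors described above was not tested. Gdf3, tested only through Tumor-macrophage and so given as a description, was at 0.220 ± 0.0460, 0.558 ± 0.232 and 31.0 ± 11.3 FPKM. Tgfb2, the isoform not among the members, was at 0.931 ± 0.197 and 1.16 ± 0.520 FPKM in the AM groups. In Tumor-macrophage it was at 0.0548 ± 0.0533 (-1.01 ± 0.18 from Tumor-AM, limma, adjusted p = 0.000975). Tgfb2 was tested only through the AM groups, so this call too is a description. Of the other activin and inhibin subunits, Inha, Inhbc and Inhbe were listed at 0 in all 9 samples, which in FPKM values can also be a failed estimate, and Inhbb had a mean of at most 0.0421 FPKM in any group. Nodal, Mstn and Gdf11 were also listed at 0. None of the 3 tested ligands passed the test between the AM groups, where the median was 0.14.

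Of 10 other receptors and co-receptors, 5 were tested. Acvrl1, the type I receptor ALK1, was at 16.1 ± 1.28, 18.4 ± 0.370 and 35.6 ± 1.59 FPKM in Ctrl-AM, Tumor-AM and Tumor-macrophage, and Eng (endoglin), its co-receptor, was at 1.40 ± 0.197, 2.29 ± 1.03 and 17.1 ± 1.77 FPKM. Both were higher in Tumor-macrophage, where Acvrl1 differed from Tumor-AM by 0.91 ± 0.08 (limma, adjusted p = 5.53e-06) and Eng by 2.51 ± 0.20 (limma, adjusted p = 2.38e-06). Bambi, a decoy receptor without a kinase domain, had 0.274 ± 0.188 FPKM for Ctrl-AM, 1.13 ± 0.364 for Tumor-AM and 4.34 ± 0.604 for Tumor-macrophage, and the step between the AM groups passed the test (0.74 ± 0.17, limma, adjusted p = 0.0230). That call was lost without Ctrl-AM 1, Ctrl-AM 2, Tumor-AM 1 or Tumor-AM 3, at 0.64 to 0.70 with limma adjusted p from 0.0727 to 0.0839, and with no filter (adjusted p = 0.0569). Bambi also passed the filter only through the 2 tumor groups, so the call stands as a description. Bmpr1a, a BMP receptor, was lower in Tumor-macrophage, at 0.131 ± 0.148 FPKM beside 1.07 ± 0.226 in Tumor-AM (-0.88 ± 0.19, limma, adjusted p = 0.00304). It was tested only through the AM groups, so this call is a description. The fifth, Bmpr2, did not pass in any comparison.

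Of 8 other antagonists, 3 were tested. Fstl1, a follistatin-like protein, was at 1.19 ± 0.259, 2.83 ± 1.92 and 1.01 ± 0.274 FPKM in the 3 groups, with a log2 difference of -0.83 ± 0.28 between Tumor-macrophage and Tumor-AM (limma, adjusted p = 0.0308). It did not pass without Tumor-AM 3 (-0.45, limma adjusted p = 0.0544), the sample with the high fibroblast sum, without Tumor-macrophage 1 (-0.75, adjusted p = 0.0897) or without Tumor-macrophage 2 (-0.80, adjusted p = 0.0731), nor with no filter or a fit of the compared groups alone (adjusted p = 0.0749 and 0.0566). Dcn (decorin), a matrix protein that binds TGF-beta and is typical of fibroblasts, had 12.3 ± 11.7 FPKM in Tumor-AM and did not pass in any comparison, nor did Nbl1.

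Of 18 genes that store and activate latent TGF-beta, 11 were tested. In Tumor-macrophage 10 of the 11 were higher and 1 was lower than in Tumor-AM, beside 24.2% and 24.4% of all genes, with a median of 1.39 beside 0.00. Of the 10, Mmp9 and Plau were tested only through Tumor-macrophage, and Ltbp3 and Mmp14 only through the 2 tumor groups. The count and the median are therefore a description. Thbs1 (thrombospondin 1, an activator of latent TGF-beta) was at 3.00 ± 0.547, 6.50 ± 0.925 and 179.2 ± 30.0 FPKM in Ctrl-AM, Tumor-AM and Tumor-macrophage, and the metalloprotease Mmp14 was at 0.566 ± 0.335, 11.3 ± 5.13 and 168.8 ± 6.35. Both also rose between the AM groups, Thbs1 by 0.91 ± 0.15 (limma, adjusted p = 0.00440) and Mmp14 by 2.89 ± 0.29 (limma, adjusted p = 0.000365). As Mmp14 was not at the filter in any Ctrl-AM sample, its call stands as a description. The integrin subunits Itgav, Itgb1 and Itgb5 were higher in Tumor-macrophage than in Tumor-AM by 1.39 ± 0.10, 0.37 ± 0.07 and 1.16 ± 0.15 (limma, adjusted p = 9.86e-07, 0.00105 and 9.74e-05), while Itgb6 and Itgb8, whose integrins are the best known activators of latent TGF-beta, were under the filter with means of at most 0.0392 FPKM. Nrros, which tethers latent TGF-beta1 on myeloid cells, was at 67.6 ± 1.19, 67.0 ± 8.28 and 108.2 ± 9.76 FPKM (0.69 ± 0.10 between the last 2, limma, adjusted p = 0.000156). Furin, the protease that cleaves TGF-beta precursors, was the 1 lower gene, at 65.1 ± 10.9 in Tumor-AM and 38.3 ± 3.43 in Tumor-macrophage (-0.74 ± 0.12, limma, adjusted p = 0.000587).

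**Figure D5:**
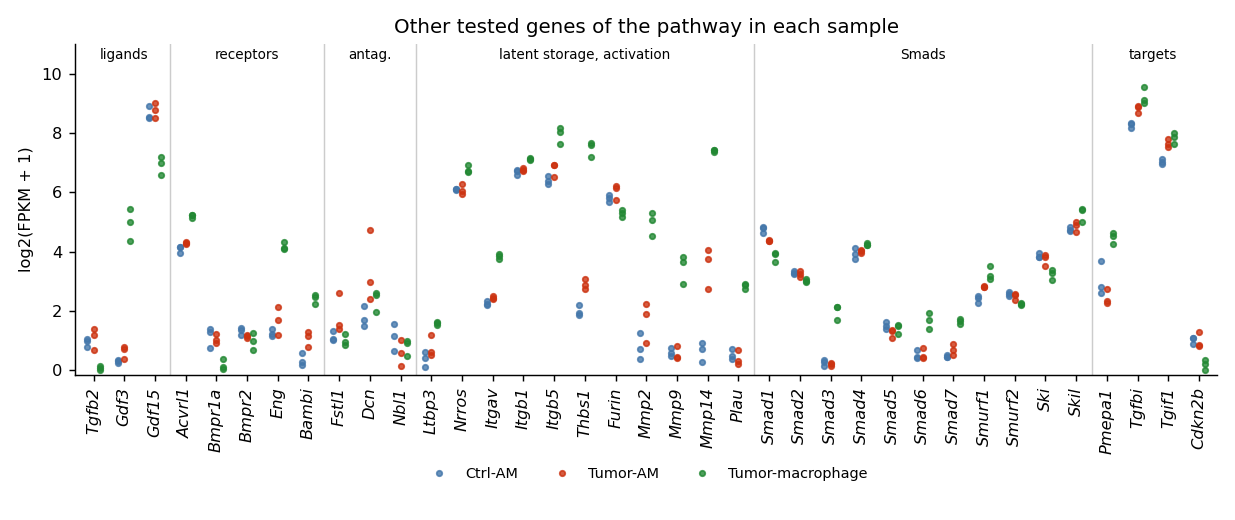
Levels of 37 of the 38 other tested genes of the pathway as log2(FPKM + 1) on the vertical axis, grouped by role, with 1 point for each of the 9 samples (Smad7 and Skil, also targets, are shown with the Smads). Most genes for storage and activation of latent TGF-beta are higher in Tumor-macrophage (green), while Gdf15 and Furin are lower there.

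Of 12 Smads and regulators, 11 were tested. The signalling Smads of activin and TGF-beta were present at unequal levels, with Smad2 at 8.77 ± 0.260, 8.51 ± 0.686 and 7.09 ± 0.302 FPKM and Smad3 at 0.191 ± 0.0831, 0.146 ± 0.0425 and 2.98 ± 0.660 in Ctrl-AM, Tumor-AM and Tumor-macrophage. The inhibitory Smads were at 0.429 ± 0.139, 0.458 ± 0.201 and 2.19 ± 0.574 FPKM for Smad6, and Smad7 ranged from 0.346 to 0.438, 0.429 to 0.828 and 1.93 to 2.33 FPKM in the same order. Smad3, Smad6 and Smad7 were tested only through Tumor-macrophage, so their values are a description. Smad1, of the BMP branch, was at 26.0 ± 1.91, 19.6 ± 0.282 and 13.3 ± 1.59 FPKM, and was the 1 pathway gene lower in Tumor-AM, with a log2 difference of -0.39 ± 0.10 from Ctrl-AM (limma, adjusted p = 0.0350). That call was lost without any 1 of the 6 AM samples, at -0.45 to -0.35 with limma adjusted p from 0.0547 to 0.131, with the replicate number as a block (adjusted p = 0.0585) and with no filter (adjusted p = 0.0576). Of the 11, 5 were higher and 2 lower in Tumor-macrophage when set against Tumor-AM, and 6 were higher and 4 lower against Ctrl-AM, with Smad3, Smad6 and Smad7 among the higher in both. Of all genes, 48.6% and 54.8% were called in these comparisons. Apart from the 2-fold requirement, the call of Skil against Tumor-AM was lost in 3 alternative fits and that of Smurf1 in 2. Against Ctrl-AM, those of Smad2, Smad4 and Smurf2 were lost in 6, 4 and 1, with Smad4 at 0.09 under TPM (limma, adjusted p = 0.474).

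Of 8 genes known as targets of TGF-beta, 7 were tested, and they did not move one way. Tgif1, a repressor of Smad transcription, had 130.5 ± 8.10 FPKM for Ctrl-AM and 201.0 ± 17.2 for Tumor-AM (0.62 ± 0.10, limma, adjusted p = 0.00483). Tgfbi, a secreted matrix protein, was at 306.1 ± 17.4 and 451.7 ± 38.9 in the same groups (0.56 ± 0.13, limma, adjusted p = 0.0209), a call lost without any 1 of Ctrl-AM 1, 2 or 3 or Tumor-AM 2 or 3 (0.51 to 0.59, limma adjusted p from 0.0554 to 0.0850), with no filter (0.0600) or with TPM (0.0729). No other target passed between the AM groups. In Tumor-macrophage, Pmepa1, an inhibitor of Smad signalling, was higher than in Tumor-AM by 2.03 ± 0.25 (limma, adjusted p = 5.89e-05), whereas Cdkn2b, a cell cycle inhibitor, was lower with a difference of -0.79 ± 0.17 (limma, adjusted p = 0.00241). Cdkn2b was tested only through the AM groups, so its call in this comparison is a description. In all, 4 targets were higher and 2 lower in that comparison, and 5 were higher and 2 lower against Ctrl-AM. Smad7 was among the higher in both, and the same 48.6% and 54.8% of all genes were called. Against Tumor-AM, the calls of Skil and Tgfbi were lost in 3 and 4 alternative fits, again apart from the 2-fold requirement.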

How the data were processed

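RNA was measured in 9 sorted macrophage samples, 3 each of Ctrl-AM, Tumor-AM and Tumor-macrophage, grouped by their labels. According to the study's methods and the submitters' processing notes, the authors made SMART-Seq HT cDNA and Nextera libraries, sequenced single-end reads of 75 bases, mapped them to mm10 with TopHat2 2.1.1 and Bowtie2, and computed FPKM with Cufflinks (listed as Cuffdiff 2.2.1). The deposited FPKM values were used as they were. The gene annotation, the handling of multi-mapping reads and the strand setting are not given in the sources used here, so genes that overlap are uncertain.

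Depth was estimated from the low values: 72.8% to 78.0% of the low values of 3915 genes with 1 transcript lay within 0.1 of a whole number of reads, where a shifted grid gave 5.4% at most, and the fit gave 11100000 to 13900000 reads a sample. Since this share is well short of all genes, no count test was run. Read numbers in the text are such estimates, taken with the longest transcript of each gene, and cover counting error only. For members with more than 1 transcript they can therefore be too high. FPKM summed to 635560.3 to 785745.3 a sample. No pair of samples was identical, and Pearson's r on the log2 scale within groups was 0.973 to 0.984.

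Group means of log2(FPKM + 1) were fitted by limma (version 3.58.1, R version 4.3.3) with its trend option, all 9 samples sharing the spread, for 10686 genes at 1 FPKM or more in at least 3 samples. Tests were two-sided, with Benjamini-Hochberg adjustment over all genes tested and a threshold of 0.05. The fit was tested on simulated data. The study gives 3 mice for each population in a figure legend on this sequencing, but the labels do not name the animal of a sample. The p-values measure the spread between these samples. Permutation tests were exact (scipy 1.17.1). Positions came from GENCODE vM21 (GRCm38, the same assembly as mm10) and promoter windows from RefSeq. Promoter windows of Fst and Tgfb3 were not used here.

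The members and lists were chosen with earlier results of these data known. The text names all members, up to 5 genes of each other list with the highest group means, up to 3 called genes per comparison with the largest change, the 3 genes nearest in profile, and marker genes. Inhbb, the genes listed at 0, Itgav, Itgb6, Itgb8, Furin, Cdkn2b, Ltbp3, Mmp9, Plau, Smurf1 and Smurf2 were named after their values were seen. The marker genes Trac and Ly6g were not analysed here, and 1 pathway gene that enters the counts is not reported here. Alternatives were a pseudocount of 0.1, no filter, a filter of 5 FPKM, quantile normalization, TPM, median-ratio scaling, a prior variance without trend, a fit restricted to the pair of groups compared, a 2-fold requirement, a replicate block, and the omission of single samples.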

Additional observations from a re-analysis of the deposited data

How the results depend on the processing

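Of 534 alternative values of the 30 member differences (10 members in 3 comparisons), 492 kept their direction and side of the threshold, 25 were no longer past it, 5 were newly past it and 12 changed sign, none of them past the threshold in either fit. These totals include Fst, which had no main call, with 14 alternatives in each comparison. Its values were compared by direction alone, except in the fit without the filter. There Fst was 1 of the 5 newly past it, at -0.69 between Tumor-macrophage and Tumor-AM (limma, adjusted p = 0.0194), which equals its own reference value. Inhba kept all 3 calls under all 19 alternatives, at 2.50 to 3.17 between Tumor-AM and Ctrl-AM. Acvr1b kept both calls except with the 2-fold requirement, and Tgfb3 kept both wherever it was tested, which excludes the fits without 1 Tumor-macrophage sample. The calls of Acvr1 and Acvr2a were also lost without the filter, with quantile normalization and with TPM. TPM put the median difference of all genes at -0.11 between Tumor-AM and Ctrl-AM and at -0.22 between Tumor-macrophage and Ctrl-AM. With TPM the sign changed for Tgfb1 (-0.05) and Tgfbr2 (-0.00052) in the first and for Acvr1 (-0.05) and Tgfbr1 (-0.11) in the second, where Acvr2b was past the threshold (-0.74, limma adjusted p = 0.0310).

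Leaving out a sample changed the sign of Tgfb1 (-0.07 without Tumor-AM 3, in a range of -0.07 to 0.25) and Acvr2b (0.11 without Ctrl-AM 1 and 0.0024 without Tumor-AM 1, in a range of -0.31 to 0.11) between the AM groups, of Tgfb1 between Tumor-macrophage and Tumor-AM (0.06 without Tumor-AM 3, in a range of -0.26 to 0.06), and, between Tumor-macrophage and Ctrl-AM, of Tgfb1 (0.05 without Ctrl-AM 2 and 0.02 without Tumor-macrophage 3, lowest -0.07), Fst (0.0048 without Ctrl-AM 2, lowest -0.11) and Acvr1 (-0.04 without Ctrl-AM 2, highest 0.23). With 1 sample left out, the number of members called was 1 between the AM groups, 3 to 5 between Tumor-macrophage and Tumor-AM (3 without Tumor-macrophage 1) and 3 to 5 between Tumor-macrophage and Ctrl-AM (3 without Ctrl-AM 2, Tumor-macrophage 2 or Tumor-macrophage 3). The number of other pathway genes called was 3 to 7, 21 to 31 and 25 to 33 in the same order, and 14 to 16 of the 18 ratio comparisons did not overlap. Without any 1 of the Tumor-macrophage samples, Tgfb3 had only 2 samples at 1 FPKM and was not tested. With a filter of 5 FPKM, 3 members were called in each comparison with Tumor-macrophage, as the low receptors were then not tested. With the 2-fold requirement the members called were 1, 2 and 2, and the other pathway genes 1, 16 and 18. With a pseudocount of 0.1, 3 of the 6 genes nearest in profile were kept. The cause of the other changes was not tested.

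In the fit with a replicate block, the members called stayed at 1, 5 and 5, and the other pathway genes at 6, 31 and 32. Over all genes the calls were 938, 5069 and 5772, beside 1100, 5191 and 5860 without it. The deviations of samples with the same number correlated at -0.062 to 0.159, with 2 of 9 pairs over 0.1 and 6 of 9 samples closest to their own number. Each Tumor-macrophage sample was closest to the Tumor-AM sample of its own number, at 0.026, 0.096 and 0.109. Such low correlations cannot settle whether the numbers pair samples. As the labels do not say so, the main fit was unpaired. Values under about 1 FPKM rest on few reads and limit Fst, Acvr2b and the AM levels of Tgfb3. They also limit both calls of Acvr1b, whose mean in Tumor-macrophage was 0.813 FPKM.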
